A study of Homo sapiens with 4 samples.

Results

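Immediate early genes are switched on within minutes of a growth factor or stress signal, without new protein synthesis. The set examined here holds 41 genes, which are immediate early genes and feedback inhibitors of the mitogen-activated protein kinase (MAPK) cascade. They were chosen as a fixed list of gene symbols, without the NR4A and MYC genes, out of 13113 genes listed in at least 1 of the deposited tables. The choice was made with earlier results of these data known. All 41 were listed for SiHa and 40 for MS751, where EGR2 was not listed. In textbook accounts, ERK, JNK and p38 phosphorylate the ternary complex factors, ATF and CREB proteins that sit with serum response factor on the promoters of FOS, EGR1 and their relatives. The encoded AP-1 and EGR proteins then drive later genes, while DUSP phosphatases, Sprouty and SPRED proteins damp the kinases and ZFP36 proteins destabilise the short-lived mRNAs.

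The libraries came from SiHa and MS751, established human cell lines from squamous carcinomas of the cervix, grown in DMEM with fetal bovine serum. In each line 1 library was made from cells transfected with siDDX24-1, an siRNA against the DEAD-box helicase gene DDX24, and 1 from cells transfected with siControl. RNA was taken on day 2, and 1 siRNA sequence stood for the knockdown in each line. With 1 library per group, no test was possible within a line, and the 95% intervals given with folds cover counting error only. Each log2 fold sets siDDX24-1 over siControl.

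Total counts lay between 13160487 and 20117442 per library. DDX24 had 993 counts with siDDX24-1 and 2072 with siControl in MS751, which was 2.30-fold lower. In SiHa it had 575 counts with siDDX24-1 and 3464 with siControl, which was 6.55-fold lower. Of 16 epithelial and squamous markers, 7 were listed for MS751 and 12 for SiHa. KRT5, KRT6A, KRT14 and TP63 were listed in neither table, and CDH1, KRT7, KRT17, KRT19 and PKP1 were also not listed for MS751. Of 12 leukocyte markers, 1 was listed for MS751 and 2 for SiHa, and PTPRC was in neither table. Of 12 endothelial markers 1 was listed in each table, without CDH5 or VWF, and of 12 fibroblast markers 7 were listed in each, without DCN or PDGFRA. The summed fibroblast marker level in MS751 was 649.6 CPM (counts scaled to a common library size) with siDDX24-1 and 634.5 CPM with siControl, and in SiHa 66.7 CPM with siDDX24-1 and 72.0 CPM with siControl. COL3A1 made up most of the MS751 sum, and 2 of the 7 listed fibroblast markers were at least 2-fold lower there, COL1A1 at a log2 fold of -1.86 and S100A4 at -1.58. In SiHa COL1A1 was at a log2 fold of -1.16 and S100A4 at 0.55. With siDDX24-1 and siControl, the summed epithelial and squamous level was 345 and 334 CPM in MS751, and 5519 and 5720 CPM in SiHa. Of these markers SFN was at least 2-fold lower in MS751, at a log2 fold of -2.18, and PKP1 in SiHa, at -2.30. The leukocyte sum with siDDX24-1 and siControl was 6.10 and 3.78 CPM in MS751, and 242 and 220.0 CPM in SiHa. The endothelial sum with siDDX24-1 and siControl was 35.4 and 46.1 CPM in MS751, and 13.7 and 12.4 CPM in SiHa. The part of other cell types in the results was not tested. In bulk RNA, fewer cells that express a gene and less RNA per cell cannot be told apart.

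Promoters of members that were at least 2-fold lower in MS751 are shown where they held a searched motif, because these elements are the textbook entry points of the pathway. RefSeq promoter windows on GRCh38.p14, from 250 bases before to 50 bases after the start in RefSeq, were available for 32 of the 41 members, all but FOSL1, EGR3, IER3, DUSP4, DUSP5, KLF10, ZFP36L2, TRIB1 and ARC. The motifs searched on both strands were the CArG box bound by serum response factor, the cyclic AMP response element TGACGTCA, and the AP-1 element TGANTCA. No match of one motif overlapped a match of another in these members. Capitals mark the matches in EGR1 (chr5:138465229-138465528, plus strand), MAFF (chr22:38201744-38202043, plus strand), DUSP1 (chr5:172771146-172771445, minus strand) and JUND (chr19:18281573-18281872, minus strand), printed 5′ to 3′.
EGR1: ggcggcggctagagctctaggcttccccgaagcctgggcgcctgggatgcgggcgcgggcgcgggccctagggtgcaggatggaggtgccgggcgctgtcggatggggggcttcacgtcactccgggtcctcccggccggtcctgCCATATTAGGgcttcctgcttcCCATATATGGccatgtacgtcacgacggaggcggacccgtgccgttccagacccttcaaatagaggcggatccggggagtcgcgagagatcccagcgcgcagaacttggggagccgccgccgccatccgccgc
MAFF: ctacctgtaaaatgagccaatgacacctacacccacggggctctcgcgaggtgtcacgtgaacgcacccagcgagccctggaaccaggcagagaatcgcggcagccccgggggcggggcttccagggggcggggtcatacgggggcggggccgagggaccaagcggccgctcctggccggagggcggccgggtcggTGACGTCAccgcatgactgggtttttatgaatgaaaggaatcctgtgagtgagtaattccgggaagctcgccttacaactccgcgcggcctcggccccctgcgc
DUSP1: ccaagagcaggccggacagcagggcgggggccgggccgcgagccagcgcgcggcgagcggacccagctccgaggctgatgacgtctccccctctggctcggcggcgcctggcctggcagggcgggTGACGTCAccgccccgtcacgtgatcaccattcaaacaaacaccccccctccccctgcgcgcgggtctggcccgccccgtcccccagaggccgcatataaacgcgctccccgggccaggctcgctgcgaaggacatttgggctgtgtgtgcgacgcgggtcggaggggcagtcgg
JUND: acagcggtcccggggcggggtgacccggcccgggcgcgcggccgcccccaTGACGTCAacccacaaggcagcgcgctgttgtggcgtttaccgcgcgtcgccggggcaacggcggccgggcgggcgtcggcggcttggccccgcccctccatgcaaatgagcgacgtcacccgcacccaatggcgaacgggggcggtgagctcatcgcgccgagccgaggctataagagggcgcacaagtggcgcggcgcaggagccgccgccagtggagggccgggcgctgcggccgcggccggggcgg

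The EGR1 window held 2 CArG boxes, whose first bases lie 105 and 83 bases before the start. The TGACGTCA element began 54 bases before the start in MAFF, 125 in DUSP1 and 200 in JUND. These distances are from the RefSeq start, which for MAFF lies inside the span of the GENCODE gene given with its counts and for EGR1 lies just before that gene. A CArG box was present in 2 of the 32 member windows (EGR1 and SRF, 6.25%), against 1.08% of the 10603 windows of genes listed in either count table and 1.29% of all 27305 windows. TGACGTCA was present in 4 of 32 (JUND, DUSP1, DUSP8 and MAFF, 12.5%), against 3.26% of listed genes' windows and 1.98% of all windows. TGANTCA was present in 1 of 32 (FOSL2, 3.12%), near the 4.4% of listed genes' windows, and in 7.76% of all windows. Among the 16 windows of members at least 2-fold lower in MS751, 1 held a CArG box, 3 held TGACGTCA and none held TGANTCA. Among the 16 windows of the other members, each of the motifs was held by 1. SRF carried 2 CArG boxes and DUSP8 carried 2 TGACGTCA elements, and neither gene passed 2-fold in a line. The FOS window held no match, and sequence outside the windows or other forms of the motifs were not searched. A match describes these letters and is no measurement of binding.

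In MS751 the members were mostly lower in the siDDX24-1 library, and in SiHa most of their folds were small. In MS751, 19 of 40 members were at least 2-fold lower (47.5%), against 8.55% of all 12036 genes, and 1 was at least 2-fold higher (2.50%), against 3.74% of all genes. In SiHa, 1 of 41 was at least 2-fold lower (2.44%), against 3.05% of all 12189 genes, and none was at least 2-fold higher, against 1.46%. The SiHa shares past 2-fold were therefore near the background. The median log2 fold of the members was -0.89 in MS751, where the median of all genes was 0.00081, and -0.19 in SiHa, where it was -0.0041. Summed over the members, the level in MS751 was 3058 CPM with siDDX24-1 and 6731 CPM with siControl, and in SiHa 5991 CPM with siDDX24-1 and 7467 CPM with siControl.

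**Figure D1:**
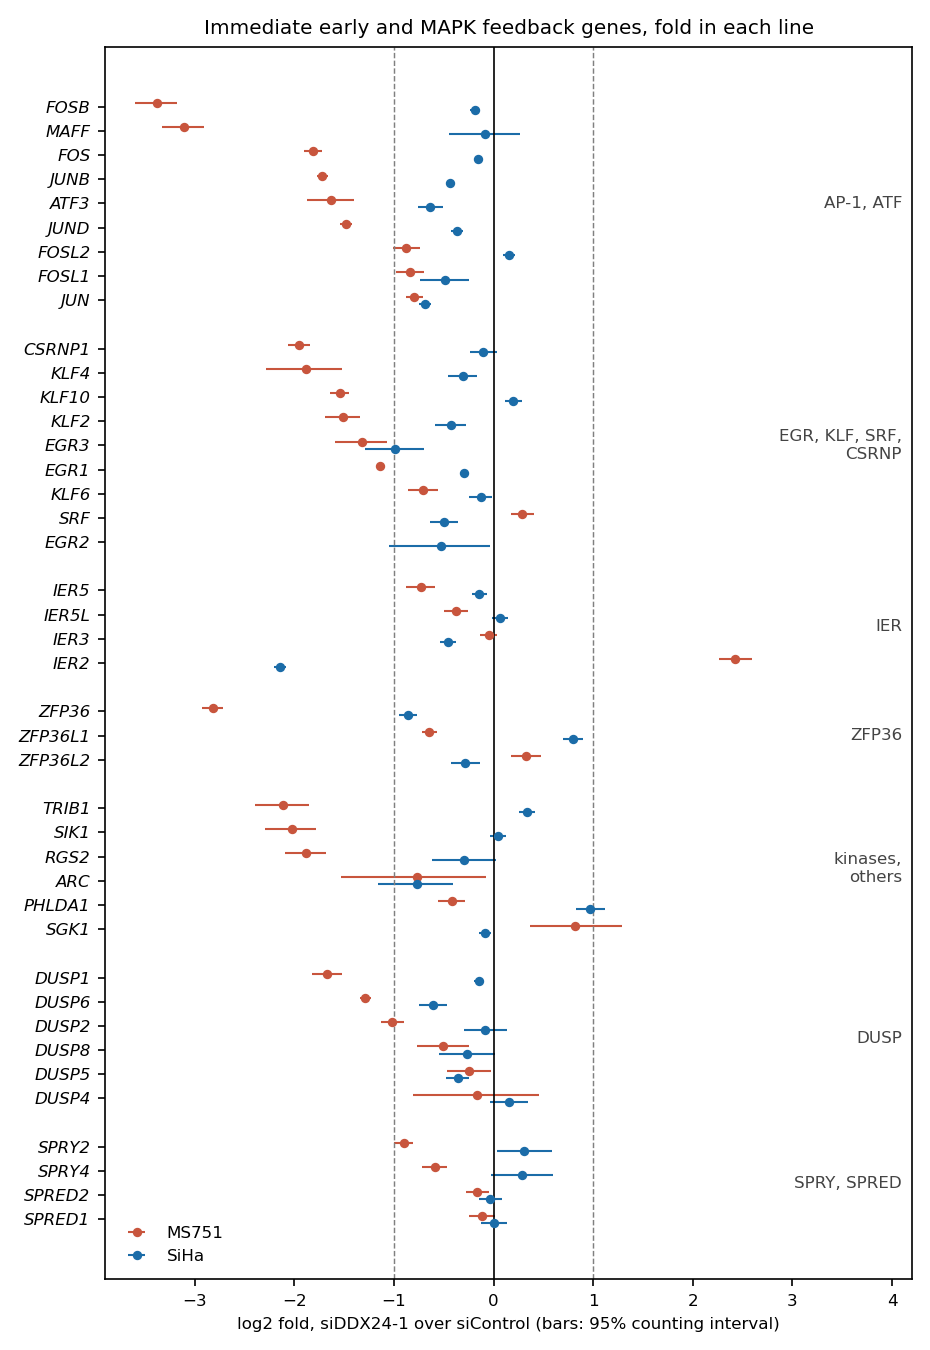
Log2 fold (siDDX24-1 over siControl) of each member in MS751 (red) and SiHa (blue), 1 library per group, with 95% counting intervals and dashed lines at 2-fold, genes grouped by role. In MS751 19 of 40 points lie at or beyond 2-fold lower, while in SiHa only IER2 does, and IER2 lies on opposite sides in the lines.

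Counting intervals that left out 0 lay below it more often than above it in both lines. Such intervals narrow as counts rise, and the shares over all genes were not matched to the members by level. In MS751 they lay wholly below 0 for 33 of 40 members, against 36.1% of all genes, and wholly above 0 for 4, against 36.4%. In SiHa they lay below 0 for 24 of 41 members, against 30% of all genes, and above 0 for 6, against 30.2%. Among the 40 members in both tables, 18 had intervals below 0 in both lines (45.0%), against 16.8% of the 11112 genes in both tables. No member had intervals above 0 in both lines, against 18.3% of those genes. No member was at least 2-fold lower in both lines, against 0.9% of the genes, and none at least 2-fold higher in both, against 0.243%. For 4 members the interval was above 0 in MS751 and below 0 in SiHa, against 5.98% of the genes, and for 6 it was below 0 in MS751 and above 0 in SiHa, against 6.23%. All these intervals are without correction for GC content and were not recomputed with it. With the trend of all genes' folds on GC content removed, 24 of 41 members had folds below 0 in SiHa, where 31 had before. In MS751 33 of 40 members did, where 36 had before. Over all genes without the correction, 6145 of 12189 had folds below 0 in SiHa and 6014 of 12036 in MS751. With the trend removed, the median over all genes was 0.023 in SiHa and 0.047 in MS751.

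**Figure D2:**
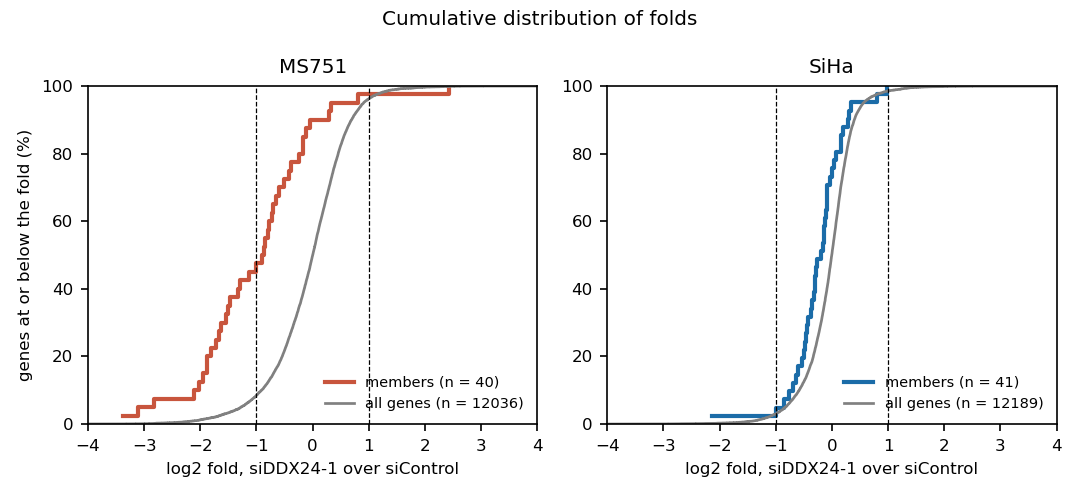
Cumulative share of genes (%) at or below each log2 fold, for the members (coloured) and for all genes of the table (grey), in MS751 and SiHa, with dashed lines at 2-fold. In MS751 the member curve reaches 47.5% at 2-fold lower where all genes reach 8.55%, and in SiHa the curves lie closer together, with medians of -0.19 and -0.0041.

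The AP-1 genes encode leucine zipper proteins that pair as FOS-JUN or JUN-JUN dimers. In MS751 every one of the 9 AP-1 and ATF members was below 0 and 6 were at least 2-fold lower (66.7%). Over all genes there, 6014 of 12036 were below 0 and 8.55% were at least 2-fold lower. The summed level of the 9 members in MS751 was 774 CPM with siDDX24-1 and 2315 CPM with siControl. FOSB (ENSG00000125740, GRCh38 chromosome 19 from 45467995 to 45475179 on the plus strand) had 204 counts with siDDX24-1 and 1933 with siControl in MS751 (log2 fold -3.38, 95% interval -3.60 to -3.18). That is 10.4-fold lower, the lowest fold of all members. In SiHa FOSB had 6566 counts with siDDX24-1 and 6867 with siControl (log2 fold -0.19, 95% interval -0.24 to -0.14). FOS (ENSG00000170345, GRCh38 chromosome 14 from 75278774 to 75282230 on the plus strand), the founding partner of JUN, had 1388 counts with siDDX24-1 and 4419 with siControl in MS751 (log2 fold -1.81, 95% interval -1.90 to -1.73). The same gene had 14797 counts with siDDX24-1 and 15150 with siControl in SiHa (log2 fold -0.16, 95% interval -0.19 to -0.12). So FOS and FOSB were 3.51-fold and 10.4-fold lower in MS751, but 1.11-fold and 1.14-fold lower in SiHa. FOSL2, a later and longer-lived FOS relative, had 719 counts with siDDX24-1 and 1195 with siControl in MS751 (log2 fold -0.87, 95% interval -1.01 to -0.74). In SiHa FOSL2 had 4502 counts with siDDX24-1 and 3715 with siControl (log2 fold 0.15, 95% interval 0.09 to 0.22), which is in the opposite direction.

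JUN, JUNB and JUND each have a single exon in their longest annotated transcript. Such genes made up 7 of the 41 members and 2 of the 19 that were at least 2-fold lower in MS751. JUNB had 3305 counts with siDDX24-1 and 9864 with siControl in MS751 (log2 fold -1.72, 95% interval -1.78 to -1.66). In SiHa JUNB had 14361 counts with siDDX24-1 and 17929 with siControl (log2 fold -0.44, 95% interval -0.47 to -0.41). JUNB exons overlap those of HOOK2 on the opposite strand, and HOOK2 itself had 257 counts with siDDX24-1 and 471 with siControl in MS751. How the counting used strand is not stated, so reads from JUNB and HOOK2 cannot be told apart. The same holds for EGR3, IER2, IER3, IER5L, DUSP6, CSRNP1 and PHLDA1, each overlapped by a non-coding gene on the opposite strand. JUND, the AP-1 member that is usually expressed steadily, had 2808 counts with siDDX24-1 and 7096 with siControl in MS751 (log2 fold -1.48, 95% interval -1.54 to -1.42). In SiHa JUND had 3887 counts with siDDX24-1 and 4601 with siControl (log2 fold -0.37, 95% interval -0.43 to -0.30). JUN itself was lower by similar amounts in the lines. It had 1792 counts with siDDX24-1 and 2821 with siControl in MS751 (log2 fold -0.80, 95% interval -0.88 to -0.71). In SiHa JUN had 4183 counts with siDDX24-1 and 6190 with siControl (log2 fold -0.69, 95% interval -0.75 to -0.63).

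MAFF and ATF3 are small leucine zipper factors, MAFF lacking a transactivation domain and ATF3 being a stress-induced repressor. MAFF (ENSG00000185022, GRCh38 chromosome 22 from 38200767 to 38216511 on the plus strand) had 207 counts with siDDX24-1 and 1625 with siControl in MS751 (log2 fold -3.11, 95% interval -3.33 to -2.91), which is 8.63-fold lower. In SiHa it had 138 counts with siDDX24-1 and 135 with siControl, with an interval that includes 0 (log2 fold -0.09, 95% interval -0.44 to 0.26). ATF3 had 202 counts with siDDX24-1 and 570 with siControl in MS751 (log2 fold -1.63, 95% interval -1.88 to -1.41). It was also lower in SiHa, with 920 counts with siDDX24-1 and 1313 with siControl (log2 fold -0.64, 95% interval -0.76 to -0.51). FOSL1, the remaining member of the group, had log2 folds of -0.84 in MS751 and -0.49 in SiHa.

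EGR, KLF and CSRNP1 genes encode nuclear transcription factors. In MS751 6 of the 8 listed members of this group were at least 2-fold lower (75%), against 8.55% of all genes. EGR1 (ENSG00000120738, GRCh38 chromosome 5 from 138465490 to 138469315 on the plus strand), a zinc finger factor, had 6316 counts with siDDX24-1 and 12619 with siControl in MS751 (log2 fold -1.14, 95% interval -1.19 to -1.10). In SiHa, where it had the level next to the highest per kb of exon among the members, EGR1 had 21370 counts with siDDX24-1 and 24153 with siControl (log2 fold -0.30, 95% interval -0.33 to -0.27). EGR1 was thus 2.21-fold lower in MS751 and 1.23-fold lower in SiHa. EGR3, a relative with low counts, was lower by similar folds in both lines. It had 173 counts with siDDX24-1 and 394 with siControl in MS751 (log2 fold -1.33, 95% interval -1.60 to -1.07). In SiHa EGR3 had 151 counts with siDDX24-1 and 276 with siControl (log2 fold -0.99, 95% interval -1.29 to -0.70), just inside 2-fold. EGR2, listed for SiHa alone, had 60 counts with siDDX24-1 and 80 with siControl (log2 fold -0.53, 95% interval -1.05 to -0.04).

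CSRNP1, a cysteine- and serine-rich nuclear protein, had 873 counts with siDDX24-1 and 3059 with siControl in MS751 (log2 fold -1.95, 95% interval -2.06 to -1.84). Its SiHa interval included 0, with 852 counts with siDDX24-1 and 840 with siControl (log2 fold -0.10, 95% interval -0.24 to 0.04). KLF10, a Krüppel-like factor induced by TGF-beta, had 1292 counts with siDDX24-1 and 3418 with siControl in MS751 (log2 fold -1.55, 95% interval -1.64 to -1.45). In SiHa KLF10 lay on the other side of 0, with 2542 counts with siDDX24-1 and 2034 with siControl (log2 fold 0.20, 95% interval 0.11 to 0.28). Both KLF2 and KLF4, known for roles in endothelium and in stem cells, were also lower in MS751. KLF4 had 77 counts with siDDX24-1 and 260 with siControl (log2 fold -1.88, 95% interval -2.28 to -1.53). KLF2 had 369 counts with siDDX24-1 and 955 with siControl (log2 fold -1.51, 95% interval -1.69 to -1.34). In SiHa KLF4 had 698 counts with siDDX24-1 and 796 with siControl, a log2 fold of -0.31. KLF2 there had 606 counts with siDDX24-1 and 751 with siControl, a log2 fold of -0.43.

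SRF, the MADS-box factor that binds the CArG box, had folds of opposite sign in the lines. It had 1462 counts with siDDX24-1 and 1085 with siControl in MS751 (log2 fold 0.29, 95% interval 0.17 to 0.40). In SiHa SRF had 715 counts with siDDX24-1 and 928 with siControl (log2 fold -0.50, 95% interval -0.64 to -0.36). SRF was thus higher with siDDX24-1 in MS751, the line in which EGR1 and FOS were at least 2-fold lower, and lower in SiHa. KLF6 had log2 folds of -0.71 in MS751 and -0.13 in SiHa.

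IER2 (ENSG00000160888, GRCh38 chromosome 19 from 13150415 to 13154908 on the plus strand), a nuclear protein of the immediate early response, had the largest difference between the lines of all members. In MS751 it had 2006 counts with siDDX24-1 and 338 with siControl (log2 fold 2.42, 95% interval 2.26 to 2.60), the only member at least 2-fold higher. In SiHa IER2 had 2866 counts with siDDX24-1 and 11635 with siControl (log2 fold -2.14, 95% interval -2.20 to -2.08), the only member at least 2-fold lower. The siDDX24-1 libraries lay close to each other, at 44.7 CPM per kb of exon in MS751 and 47.4 in SiHa, while the siControl libraries lay far apart, at 8.32 CPM per kb in MS751 and 209 in SiHa. The other IER genes had log2 folds closer to 0, from -0.73 (IER5) to -0.05 (IER3) in MS751. In SiHa they lay between -0.46 (IER3) and 0.06 (IER5L).

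ZFP36 (tristetraprolin) and its relatives bind AU-rich elements and speed the decay of cytokine and immediate early mRNAs. ZFP36 (ENSG00000128016, GRCh38 chromosome 19 from 39406813 to 39409412 on the plus strand) had 850 counts with siDDX24-1 and 5429 with siControl in MS751 (log2 fold -2.82, 95% interval -2.92 to -2.71), which is 7.05-fold lower. It was lower in SiHa as well, with 1674 counts with siDDX24-1 and 2786 with siControl (log2 fold -0.86, 95% interval -0.95 to -0.77). Its relatives did not share this pattern. ZFP36L1 had 2553 counts with siDDX24-1 and 3619 with siControl in MS751 (log2 fold -0.65, 95% interval -0.72 to -0.57). In SiHa ZFP36L1 had 2562 counts with siDDX24-1 and 1355 with siControl (log2 fold 0.80, 95% interval 0.70 to 0.89), the next to highest fold of the members there. ZFP36L2 had 894 counts with siDDX24-1 and 647 with siControl in MS751 (log2 fold 0.32, 95% interval 0.18 to 0.47). In SiHa it had 709 counts with siDDX24-1 and 793 with siControl (log2 fold -0.28, 95% interval -0.43 to -0.14), so that ZFP36L1 and ZFP36L2 had opposite signs in each line.

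Of the kinases, pseudokinases and other effectors, 3 of 6 were at least 2-fold lower in MS751 (50%), against 8.55% of all genes. TRIB1, a pseudokinase that presents substrates to the ubiquitin ligase COP1, had 145 counts with siDDX24-1 and 572 with siControl in MS751 (log2 fold -2.11, 95% interval -2.40 to -1.86). In SiHa TRIB1 had 2980 counts with siDDX24-1 and 2168 with siControl (log2 fold 0.34, 95% interval 0.26 to 0.42), on the other side of 0. SIK1, a salt-inducible kinase that restrains CREB coactivators, had 167 counts with siDDX24-1 and 620 with siControl in MS751 (log2 fold -2.03, 95% interval -2.29 to -1.79). Its SiHa interval included 0, with 2772 counts with siDDX24-1 and 2472 with siControl (log2 fold 0.04, 95% interval -0.04 to 0.12). SIK1 has a near-identical annotated copy, SIK1B, that was not listed in the tables, so its counts are less certain. RGS2, which limits Gq-coupled receptor signals, had 251 counts with siDDX24-1 and 839 with siControl in MS751 (log2 fold -1.88, 95% interval -2.09 to -1.68). In SiHa RGS2 had 157 counts with siDDX24-1 and 177 with siControl (log2 fold -0.29, 95% interval -0.61 to 0.02), an interval that includes 0.

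PHLDA1 and SGK1 differed from these. PHLDA1, a pleckstrin homology protein, had 788 counts with siDDX24-1 and 957 with siControl in MS751 (log2 fold -0.42, 95% interval -0.56 to -0.29). In SiHa it had 1167 counts with siDDX24-1 and 546 with siControl (log2 fold 0.97, 95% interval 0.83 to 1.12), the highest fold of the members in that line and just inside 2-fold. SGK1, the serum- and glucocorticoid-regulated kinase, had only 121 counts with siDDX24-1 and 62 with siControl in MS751 (log2 fold 0.81, 95% interval 0.37 to 1.29). In SiHa, by contrast, it had 5230 counts with siDDX24-1 and 5099 with siControl (log2 fold -0.09, 95% interval -0.14 to -0.03). ARC, an activity-regulated cytoskeletal protein, had log2 folds of -0.77 in MS751 and -0.77 in SiHa, on at most 153 counts in a library.

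DUSP phosphatases remove phosphate from activated MAP kinases and are themselves induced by them. In MS751 3 of 6 were at least 2-fold lower (50%), against 8.55% of all genes. The summed level of the 6 in MS751 was 405 CPM with siDDX24-1 and 937 CPM with siControl. DUSP1 (ENSG00000120129, GRCh38 chromosome 5 from 172768090 to 172771195 on the minus strand), a nuclear phosphatase of p38, JNK and ERK, had 463 counts with siDDX24-1 and 1336 with siControl in MS751 (log2 fold -1.67, 95% interval -1.83 to -1.52). In SiHa DUSP1 had 6900 counts with siDDX24-1 and 7025 with siControl (log2 fold -0.15, 95% interval -0.20 to -0.10). DUSP6, the cytoplasmic ERK phosphatase often read as a gauge of ERK output, had 3882 counts with siDDX24-1 and 8578 with siControl in MS751 (log2 fold -1.29, 95% interval -1.34 to -1.23). It was lower in SiHa too, with 714 counts with siDDX24-1 and 1000 with siControl (log2 fold -0.61, 95% interval -0.75 to -0.47). Thus DUSP6 was 2.44-fold lower in MS751 and 1.52-fold lower in SiHa, whereas DUSP1 was 3.18-fold and 1.11-fold lower. DUSP2, a nuclear phosphatase best known in lymphocytes, had 971 counts with siDDX24-1 and 1780 with siControl in MS751 (log2 fold -1.02, 95% interval -1.13 to -0.90). In SiHa DUSP2 had 362 counts with siDDX24-1 and 352 with siControl (log2 fold -0.08, 95% interval -0.30 to 0.13), an interval that includes 0. The folds of DUSP4, DUSP5 and DUSP8 lay between -0.50 and -0.17 in MS751, and between -0.36 and 0.15 in SiHa.

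The Sprouty and SPRED inhibitors, which act on RAS and RAF activation, had smaller folds, none past 2-fold. SPRY2 had 1500 counts with siDDX24-1 and 2542 with siControl in MS751 (log2 fold -0.90, 95% interval -0.997 to -0.81). In SiHa SPRY2 had 259 counts with siDDX24-1 and 192 with siControl (log2 fold 0.31, 95% interval 0.03 to 0.59). SPRY4 had the same signs, at -0.59 in MS751 and 0.28 in SiHa, where its interval included 0. SPRED1 and SPRED2, which bring neurofibromin to RAS, had log2 folds of -0.12 and -0.16 in MS751. In SiHa both of their intervals included 0, with SPRED1 at 1007 counts with siDDX24-1 and 925 with siControl and SPRED2 at 1191 with siDDX24-1 and 1119 with siControl.

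**Figure D3:**
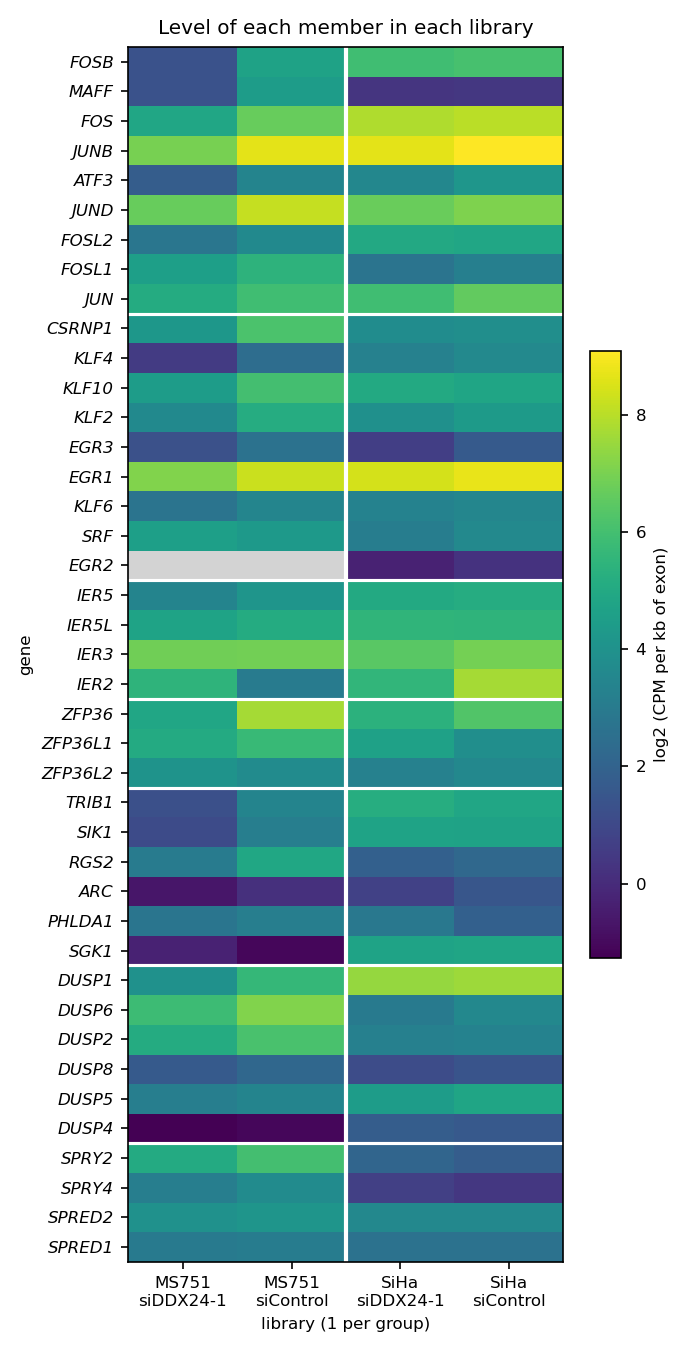
Level of each member in each of the 4 libraries, as log2 of CPM per kb of annotated exon, genes grouped by role (grey: not listed). JUNB, EGR1, JUND and FOS are among the brightest rows, IER2 is brightest in SiHa siControl, and FOSB and MAFF are dim in MS751 siDDX24-1 at 2.52 and 2.53 CPM per kb.

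Levels per kb of annotated exon placed JUNB at the top of the members in SiHa siDDX24-1 (401 CPM per kb), SiHa siControl (545) and MS751 siControl (410.0), and EGR1 in MS751 siDDX24-1 (138). ZFP36 was at 28.97 CPM per kb with siDDX24-1 and 204 with siControl in MS751. The siControl libraries themselves differed between the lines. With all 4 libraries scaled together, 12 of 40 members were at least 2-fold higher in MS751 siControl than in SiHa siControl (30.0%), against 14.8% of all genes, and 13 were at least 2-fold lower (32.5%), against 14.5%. Higher in MS751 were SPRY2 (log2 difference 4.09), MAFF (3.95), DUSP6 (3.47) and SPRY4 (3.25). Lower in MS751 were SGK1 (-5.98), IER2 (-4.74), DUSP4 (-2.80) and DUSP1 (-2.03). Between the siDDX24-1 libraries the log2 difference of MAFF was 0.91, that of DUSP6 2.77 and that of FOSB -4.67. These genes were named after their values were seen.

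edgeR's quasi-likelihood test, blocked by line, was applied to the average change over the lines for the 11112 genes in both tables. None of the 40 members passed a Benjamini-Hochberg adjusted p of 0.05, against 0.027% of all genes called lower and 0.018% called higher. At an unadjusted p under 0.05, 17 members were lower (42.5%), against 8.3% of all genes, and none was higher, against 4.34%. All 17 had log2 folds below 0 in both lines, but an average can be low mainly through 1 line. Of the 17, MAFF, CSRNP1 and RGS2 had SiHa intervals that included 0. The number lower at an unadjusted p under 0.05 was 17 with DESeq2, 12 with DESeq2 size factors in edgeR and 6 with limma on the folds. ZFP36 had the smallest edgeR adjusted p of the members, 0.256, with a common log2 fold of -1.85 (SE 0.44) and a lower value in 2 of 2 lines. DESeq2's Wald test called 1 member, ZFP36 (adjusted p 0.00101), against 0.639% of all genes called lower and 0.234% higher, and limma on the folds called none. The test has 1 residual degree of freedom, and nothing in the labels gives separate cultures within a line, so these p-values reflect only how the 4 libraries vary and may be technical in part.

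The folds were lower in MS751 than in SiHa for 33 of 40 members (82.5%), against 46.8% of all genes. They were lower by at least 1 on the log2 scale for 18 (45.0%), against 6.24%. The spread of folds over all genes was also wider in MS751, with an SD of 0.689 in MS751 and 0.463 in SiHa. The difference between the lines was not tested, because 1 library per group leaves no spread to set it against. The knockdown itself was smaller in MS751, with DDX24 at a log2 fold of -1.20 there and -2.71 in SiHa.

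GC content moved with the folds of all genes, and the members are rich in GC. The members' median transcript GC content was 56.6% in MS751 and 56.5% in SiHa, against 50.2% and 50.1% over all genes of the tables. Across all genes Spearman's rho between fold and GC content was -0.37 in MS751 (12016 genes) and -0.34 in SiHa (12167 genes), a description over genes that share the same libraries. After removal of a smooth GC trend, the members' median in MS751 was -0.77, and 16 of 40 members were at least 2-fold lower, 15 of them among the 19 above, against 6.15% of all genes. One member, IER2, was at least 2-fold higher there, against 3.84%. In SiHa the median became -0.09, IER2 was the 1 member at least 2-fold lower, against 2.22%, and ZFP36L1 was the 1 at least 2-fold higher, against 1.72%, at 1.04. There FOS, JUND and MAFF moved to the other side of 0. EGR3, JUND, KLF2 and DUSP2 no longer passed 2-fold in MS751 with the trend removed, at -0.77, -0.66, -0.84 and -0.49. FOSB (-3.15), MAFF (-2.81), ZFP36 (-2.36), TRIB1 (-2.15), SIK1 (-1.89) and IER2 (2.90) kept their side of 2-fold. RGS2 (41.5% GC) and KLF10 (46.2% GC), both poor in GC, had MS751 folds of -2.06 and -1.66 after removal. Besides these and TRIB1, the members below the all-gene median GC content had folds nearer to or above 0. They were SPRY2 at -1.01, KLF6 at -0.83, IER5 at -0.77, PHLDA1 at -0.59, SPRED1 at -0.30 and SGK1 at 0.70. Whether GC content accounts for the folds was not tested.

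**Figure D4:**
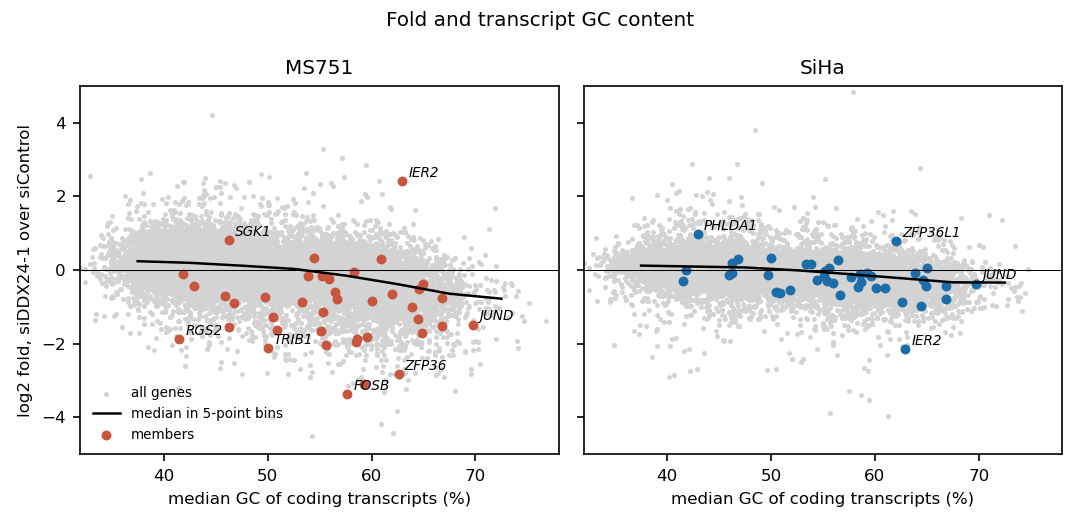
Log2 fold (siDDX24-1 over siControl) against the median GC content (%) of each gene's coding transcripts, for all genes (grey), the members (coloured) and the median of all genes in bins of 5 percentage points (black line). The line slopes down in both panels, and in MS751 most members lie below it, with IER2 far above.

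Genes of the kinase cascades that act upstream of the members had medians near 0 in both lines. Over all genes, 8.55% were at least 2-fold lower and 3.74% higher in MS751, and 3.05% lower and 1.46% higher in SiHa. Of 51 listed genes of the ERK, JNK and p38 cascades in MS751, 1 was at least 2-fold lower (1.96%) and 4 were at least 2-fold higher (7.84%), with a median of 0.13. The lower gene was RRAS, a RAS relative, at -1.12. Higher were the adaptor GRB2 at 1.73, MRAS at 1.51, MAPK14 at 1.40, which encodes p38-alpha, and MAPKAPK3 at 1.19. In SiHa 1 of 52 was past 2-fold, again MAPK14, with 1315 counts with siDDX24-1 and 441 with siControl, and the median was -0.03. Of the SRF, ternary complex, CREB and AP-1 partner factors, 1 of 19 was past 2-fold in MS751, the small MAF gene MAFK at -1.48, and none of 18 in SiHa, with medians of -0.08 and 0.07.

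Other feedback regulators had a median of -0.45 in MS751, with 4 of 13 at least 2-fold lower (30.8%, against 8.55% of all genes) and none higher. These were SPRY1 at -1.44, which had 1770 counts with siDDX24-1 and 4343 with siControl, DUSP10 at -1.27, LRIG1 at -1.05 and DUSP3 at -1.02. In SiHa 1 of 11 was past 2-fold lower (9.09%, against 3.05% of all genes), IL17RD at -1.10, and the median was -0.09. Delayed ERK output genes, which follow the first wave, had medians of -0.10 in MS751 and -0.38 in SiHa. In MS751 1 of 13 was past 2-fold lower (7.69%, near the 8.55% of all genes), MYEOV at -1.66.

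Cytoskeletal targets of SRF and its MRTF coactivators had medians of 0.19 in MS751 and -0.02 in SiHa. In MS751 2 of 19 were at least 2-fold higher (10.5%, against 3.74% of all genes), TPM4 at 1.74 and VCL at 1.54. These encode a tropomyosin and vinculin. CCN1 was the 1 at least 2-fold lower, at -1.11 (5.26%, against 8.55% of all genes). None of 17 was past 2-fold in SiHa. Other rapidly induced genes resembled the members in MS751, with a median of -0.85 and 8 of 22 at least 2-fold lower (36.4%, against 8.55% of all genes). The lowest were BHLHE40 at -2.82, which had 1873 counts with siDDX24-1 and 11978 with siControl, BTG1 at -2.20, CCNL1 at -2.03 and GADD45B at -1.98. In SiHa this list had a median of -0.28. There 1 of 23 was past 2-fold lower (4.35%, against 3.05% of all genes), CXCL8 at -1.65. ID2 was the 1 past 2-fold higher, at 1.10 (4.35%, against 1.46% of all genes). No gene of these 6 lists passed the edgeR test common to both lines. The members and the lists were chosen with earlier results of these data known, so a likeness between them is no independent support.

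**Figure D5:**
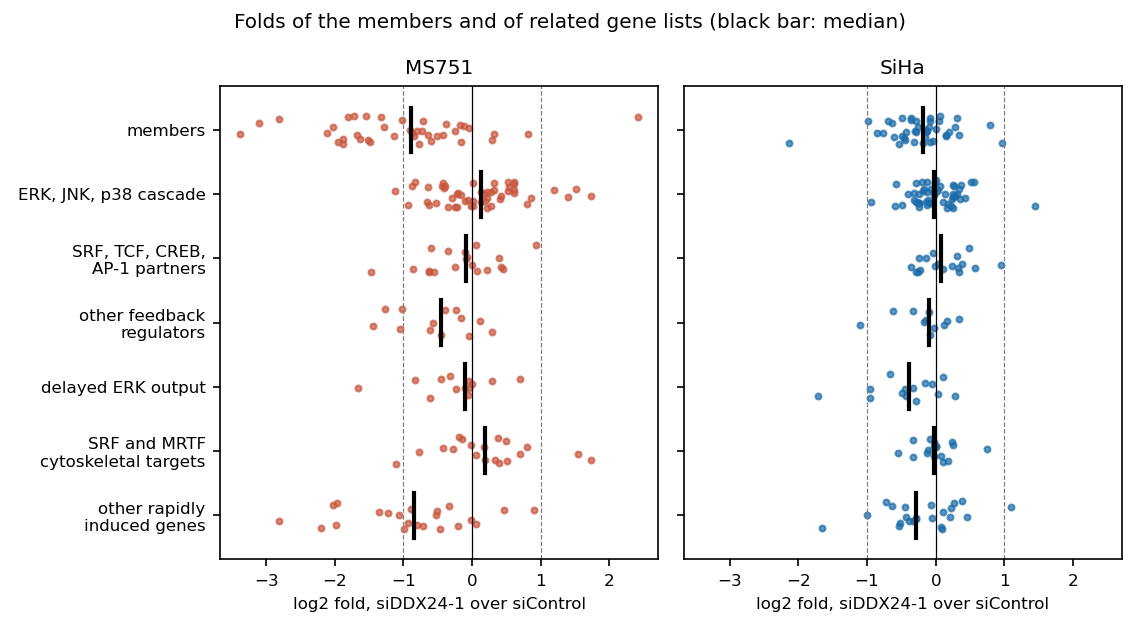
Log2 fold (siDDX24-1 over siControl) of each listed gene of the members and of 6 related lists without the members, in MS751 and SiHa, with black bars at the median and dashed lines at 2-fold. In MS751 the medians of the members (-0.89) and the other rapidly induced genes (-0.85) lie left of 0. The medians of the kinase cascade (0.13) and cytoskeletal targets (0.19) lie right of it, with genes on both sides.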

How the data were processed

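For each cell line the authors deposited a table of raw counts by Ensembl gene identifier. The submitters' processing notes name fastp 0.23.2, HISAT2 2.0.4, StringTie 1.3.4d and GRCh38.p12 (hg38), without their roles. Which program counted reads, with what strand setting and annotation, is not given here. Per the labels' protocols, libraries came from TRIzol-extracted RNA with a NEBNext Ultra kit. Every listed gene exceeded 1 CPM in both libraries of its line, so genes silent in either library were not analysed here.

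Exact copies of rows (70 for SiHa, 73 for MS751) were dropped. Symbols came from a list of gene names, with GENCODE 29 for positions, transcripts and GC content, and the identifier with the highest mean stood for a symbol. edgeR 4.0.16 (R 4.3.3) gave CPM and log2 folds, using TMM scaling within each line, a prior count of 1 and a mean of at least 1 CPM. Intervals are exact conditional intervals of the ratio of counts (Clopper-Pearson, 95%); no molecular identifiers are mentioned, so reads may repeat molecules and the intervals cover counting error alone. The common test was edgeR's quasi-likelihood test with the line as a block, the only pairing the labels give. DESeq2 1.42.0, limma 3.58.1 and trends fitted with mgcv 1.9.3 were alternatives, and the functions were tested on simulated counts. Members and lists were chosen with earlier results of these data known. Members past 2-fold in a line, or with counting intervals on opposite sides of 0 in the lines, were given with all counts, with a few pathway genes beside them; from the lists, up to 4 genes per line past 2-fold were named, except for 1 result that is not reported here.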

Additional observations from a re-analysis of the deposited data

Results flagged for a closer look

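In 10 of the 40 members listed for both lines, the counting intervals of the fold lay on opposite sides of 0 in MS751 and SiHa. With 1 library per group these differences were not tested, and the intervals leave out the spread between cultures. In 4 of them the fold was above 0 in MS751 and below 0 in SiHa (against 5.98% of the genes in both tables). The log2 fold in MS751 minus that in SiHa was 4.57 for IER2, 0.90 for SGK1, 0.79 for SRF and 0.61 for ZFP36L2. In the other 6 the fold was below 0 in MS751 and above 0 in SiHa (against 6.23%). There the difference was -2.45 for TRIB1, -1.74 for KLF10, -1.44 for ZFP36L1, -1.39 for PHLDA1, -1.21 for SPRY2 and -1.03 for FOSL2. IER2 alone passed 2-fold in both lines, in opposite directions, and is 1 of 15 among the 11112 shared genes (0.135%) with these signs.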

How the results depend on the processing

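The number of members at least 2-fold lower in MS751 was 19 under other prior counts, library totals, DESeq2 size factors, either filter and summed symbols, 18 with a trend on transcript length removed and 16 with a trend on GC content removed. The median of the members in MS751 lay between -0.96 and -0.77 over these settings. In SiHa the number at least 2-fold lower was 1, and 2 with library totals, which shifted the median of all SiHa genes to -0.07. None was at least 2-fold higher in SiHa, but 1 was (ZFP36L1) with the GC trend removed. The SiHa median lay between -0.25 and -0.09. With the GC trend removed the sign changed for 7 members in SiHa and 3 in MS751, none of them past 2-fold in the line where it changed. Of the 7 in SiHa, CSRNP1, DUSP2, FOS, JUND and MAFF were at least 2-fold lower in MS751 before removal. In the test common to both lines, 1 member was lower by DESeq2 and none by edgeR with DESeq2 size factors, with either filter or with summed symbols, nor by limma. Without the cell line as a replicate block edgeR also called 0 members, and 1 at an unadjusted p under 0.05, against 17 with the block, 12 with DESeq2 size factors and 6 with limma. Leaving out a library was not possible with 1 per group. The cause of these differences was not tested. Genes under 1 CPM in a library were not in the tables, which limits the lowest values a fold can take.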

Other observations

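Genes next to IER2 on chromosome 19 had log2 folds far smaller than its own 2.42 in MS751 and -2.14 in SiHa. Within 100 kb, STX10, a syntaxin gene on the opposite strand whose start lies just before IER2, had log2 folds of 0.30 in MS751 and -0.04 in SiHa. NACC1 had 0.35 in MS751 and -0.03 in SiHa, TRMT1 -0.12 and -0.09, and NFIX 0.08 and 0.18. LYL1, listed for SiHa alone, had -0.35 there on 113 counts with siDDX24-1 and 133 with siControl. HOOK2, whose exons overlap JUNB, had log2 folds of -1.01 in MS751 and -0.63 in SiHa.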
